A study of Homo sapiens with 3 samples.

Results

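Replication-dependent histone genes encode the core histones H2A, H2B, H3 and H4 and the linker histone H1 that package newly made DNA. They were taken as the protein-coding genes of GENCODE 44, mapped to the human genome hg19, whose symbols name them H1-1 to H1-6, H2AC, H2BC, H3C or H4C with a number. The rule gave 64 of 20163 protein-coding genes, with 51 on chromosome 6, 12 on chromosome 1 and 1 on chromosome 12. By histone, 6 genes encode H1, 16 encode H2A, 16 encode H2B, 13 encode H3 and 13 encode H4. HIST2H2AA3 on chromosome 1 and HIST1H4B on chromosome 6 carry older symbols in this annotation and were not matched, so they are described separately. H2BC7, H2BC8 and H4C6 were not analysed here.

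To map histone modification regions, ChIP-seq data were obtained from untreated cultures of H2087, a lung adenocarcinoma line. Chromatin was precipitated with an antibody against histone H3 trimethylated at lysine 4 (H3K4me3), a mark of active promoters, or acetylated at lysine 27 (H3K27ac), a mark of active promoters and enhancers. Each mark had 1 library, and the library of input chromatin was not used here. There was therefore no replicate error, and no test between groups was possible. The deposited data are lists of peaks without read counts, so depth was unknown and a start without a peak cannot be told apart from a start with too few reads. As a check of the cell line, 6 of 6 epithelial marker genes (EPCAM, CDH1, KRT7, KRT8, KRT18 and KRT19) had H3K4me3 at the start. Of 5 lung lineage markers, NKX2-1 had H3K4me3 and NAPSA, SFTPB, SFTPC and SFTPA1 did not. None of 8 markers of blood, endothelial and stromal cells had either mark, and PECAM1, also listed, was not matched in the annotation. Among all protein-coding genes, 38.2% had H3K4me3 and 56.8% had neither mark.

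Most of these genes are expressed in S phase, when DNA is copied. Their transcription is organised in nuclear histone locus bodies built around NPAT. Their mRNAs are unusual in ending in a short stem-loop, bound by SLBP, in place of a poly(A) tail. Many H2A and H2B genes stand head to head and share the DNA between their starts as a common promoter.

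The stem-loop was present in every gene of the set, and its letters are shown because they separate the H4 genes from the rest. All 64 canonical transcripts had a single exon, with a median length of 489.5 bp. A sequence matching the known stem-loop pattern lay within 100 bases of the stop codon in 64 of 64 genes, at a median of 36 bases and a range of 23 to 68. Among all protein-coding genes with an annotated stop codon, 67 of 19758 (0.339%) had such a match, and the 3 outside the set were H2AX, H3-4 and H3-7. The 4 most frequent forms follow in DNA letters on the coding strand, with the 2 arms of the stem in capitals and the loop in lower case.
Form in 38 genes of H1, H2A, H2B and H3: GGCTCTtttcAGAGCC
Form in 8 genes of H4: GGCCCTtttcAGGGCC
Form in 8 genes of H1, H2A, H2B and H3: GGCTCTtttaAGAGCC
Form in 4 genes of H4: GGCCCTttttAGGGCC
These forms and 6 others with 1 gene each made up the 10 distinct sequences. The first form was found in 4 H1, 12 H2A, 11 H2B and 11 H3 genes and in 0 H4 genes.

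The DNA between divergent H2A and H2B starts carries short elements known from histone promoters. There were 10 such pairs with starts within 1 kb of each other. Both genes of 3 pairs had H3K4me3, and these 3 are printed with 2 pairs that had neither mark. Sequences are from GRCh37 (hg19), read on the plus strand, with the gene on the minus strand at the left and the gene on the plus strand at the right. Capitals mark TATAAA (the TATA box), CCAAT (bound by NF-Y) and ATTTGCAT (the octamer, bound by POU2F1), on either strand.
H2BC4 and H2AC6, chr6:26124155-26124372: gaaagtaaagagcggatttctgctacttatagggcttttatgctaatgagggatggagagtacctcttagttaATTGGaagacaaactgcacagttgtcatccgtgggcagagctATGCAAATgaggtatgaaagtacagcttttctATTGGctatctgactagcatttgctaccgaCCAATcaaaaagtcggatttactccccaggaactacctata
H2BC21 and H2AC20, chr1:149858233-149858467: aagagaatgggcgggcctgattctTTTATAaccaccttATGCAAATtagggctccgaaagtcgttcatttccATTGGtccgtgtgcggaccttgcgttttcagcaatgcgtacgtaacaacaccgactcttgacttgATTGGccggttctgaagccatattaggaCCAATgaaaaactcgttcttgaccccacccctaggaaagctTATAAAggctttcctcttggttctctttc
H2AC15 and H2BC15, chr6:27806154-27806322: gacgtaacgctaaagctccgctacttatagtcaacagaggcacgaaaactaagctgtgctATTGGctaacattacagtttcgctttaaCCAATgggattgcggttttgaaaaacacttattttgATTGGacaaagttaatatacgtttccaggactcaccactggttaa
H2BC11 and H2AC11, chr6:27100575-27100821: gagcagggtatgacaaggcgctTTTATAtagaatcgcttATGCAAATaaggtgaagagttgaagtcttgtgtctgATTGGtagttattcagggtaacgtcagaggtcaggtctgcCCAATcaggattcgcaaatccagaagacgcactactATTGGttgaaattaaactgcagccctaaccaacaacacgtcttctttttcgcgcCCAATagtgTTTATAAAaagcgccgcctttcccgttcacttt
H2AC17 and H2BC17, chr6:27860964-27861202: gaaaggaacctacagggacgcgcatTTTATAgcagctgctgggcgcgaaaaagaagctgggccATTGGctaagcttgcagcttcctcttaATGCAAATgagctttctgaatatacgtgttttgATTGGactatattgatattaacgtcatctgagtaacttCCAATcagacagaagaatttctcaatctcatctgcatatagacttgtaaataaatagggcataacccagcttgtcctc
The lengths were 218, 235, 169, 247 and 239 bp. Between the starts of H2BC4 and H2AC6 there were 3 CCAAT and 1 ATTTGCAT. That interval stops at the outer H2AC6 start, 27 bp before the canonical one. The promoters of H2BC4 and H2AC6, as defined in the next paragraph, each held 1 TATAAA, which was not wholly inside that interval. These promoter windows overlap, and whether the same site was counted for both genes was not examined. Between the starts of H2BC21 and H2AC20 there were 2 TATAAA, 3 CCAAT and 1 ATTTGCAT. The interval of H2AC15 and H2BC15 held 3 CCAAT and neither of the other motifs. The unmarked pair H2BC11 and H2AC11 held 3 TATAAA, 4 CCAAT and 1 ATTTGCAT, so the elements were present with and without peaks. Its last stretch of capitals is counted as TATAAA on both strands. The unmarked pair H2AC25 and H2BC26, which is not printed, held 3 CCAAT and neither of the other motifs.

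Across the set, promoters were taken as the 250 bases before and the first 50 bases from the canonical start. CCAAT was found in 55 of 64 promoters (85.9%), against 35.9% of all protein-coding promoters. It was in every H1, H2A, H2B and H3 promoter and in 4 of 13 H4 promoters. TATAAA was found in 43 (67.2%), against 9.8%, and ATTTGCAT in 24 (37.5%), against 1.58%. ATTTGCAT was in 12 of 16 H2A and 12 of 16 H2B promoters and in 0 promoters of H1, H3 and H4. The motifs were searched on both strands, and a match describes the letters in the window, not a bound site. The windows of both genes of a divergent pair overlap, so a site between their starts can be counted for each. The 20 H2A and H2B promoters in such pairs are therefore not independent counts. The median GC content was 43.8%, against 63.3% in all protein-coding promoters and 67.7% in those with H3K4me3, while the ratio of observed to expected CpG was 0.76 against 0.77. Of the 10 histone genes with H3K4me3, 8 held TATAAA, 10 held CCAAT and 7 held ATTTGCAT. Of the 54 without it, 35 (64.8%), 45 (83.3%) and 17 (31.5%) did. In this split, marks were counted at the outermost annotated start and motifs at the canonical start. These starts lie 11.7 kb apart for H2BC6, counted as marked, and 2.28 kb apart for H3C12, counted as unmarked.

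Replication-dependent histone genes had H3K4me3 at a smaller share of starts than protein-coding genes in general. Their shares of H3K27ac and of both marks were also lower, but with intervals that included the general shares. A gene was counted as marked when the edge of a peak lay within 1 kb of its start, meaning its outermost annotated 5′ end. H3K4me3 was found at 10 of 64 genes (15.6%, exact 95% interval 7.76 to 26.9), against 38.2% of all protein-coding genes. H3K27ac was found at 9 (14.1%, 6.64 to 25), against 23.6%. Both marks were found at 6 (9.38%, 3.52 to 19.3), against 18.6%, and 51 genes (79.7%, 67.8 to 88.7) had neither, against 56.8%. The intervals cover counting error only and treat genes as independent, although neighbours share peaks. Only 10 distinct H3K4me3 peaks and 7 distinct H3K27ac peaks lay behind these counts.

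**Figure D1:**
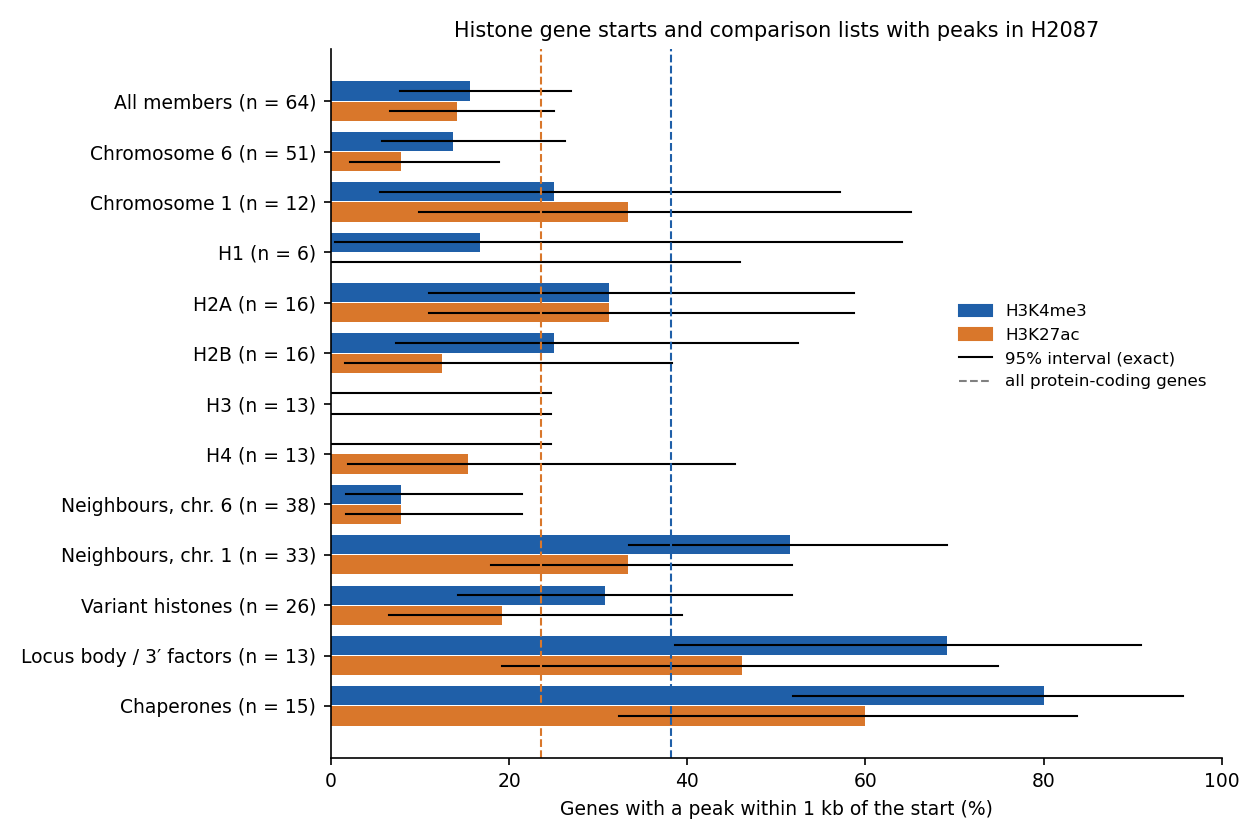
Bars give the percentage of genes with an H3K4me3 (blue) or H3K27ac (orange) peak within 1 kb of the start, black lines the exact 95% intervals, and dashed lines the shares of all protein-coding genes (38.2% and 23.6%). The bars for the whole set lie at 15.6% and 14.1%, those for H3 genes are at 0, and the lists of histone locus body factors and chaperones reach 69.2% and 80% for H3K4me3.

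By histone, H2A and H2B genes carried 9 of the 10 H3K4me3-marked starts. The counts were 5 of 16 for H2A (31.2%, 11 to 58.7) and 4 of 16 for H2B (25%, 7.27 to 52.4). Both intervals included the 38.2% of all protein-coding genes. The linker histones had 1 of 6, which was H1-4. None of the 13 H3 genes and none of the 13 H4 genes had H3K4me3 within 1 kb, so the joint share of H3 and H4 was 0 of 26, with an interval up to 13.2%. H3K27ac was found at 5 H2A genes (31.2%), 2 H2B genes (12.5%) and 2 H4 genes (15.4%, H4C4 and H4C16), and at 0 of 13 H3 genes. The share of all protein-coding genes, 23.6%, lay within the H3K27ac interval of every histone type. The intervals of the 5 histone types overlapped one another. Taken as pairs of types, H2A and H2B had H3K4me3 at 9 of 32 starts (28.1%, 13.7 to 46.7), an interval that did not reach that of H3 and H4. This separation ended with canonical starts, which gave 8 of 32 (25%, 11.5 to 43.4) and, through H3C12, 1 of 26 (3.85%, 0.0973 to 19.6). The difference was not tested, because neighbouring genes share peaks within 1 library.

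On chromosome 6, 7 of 51 genes had H3K4me3 (13.7%, 5.7 to 26.3) and 4 had H3K27ac (7.84%, 2.18 to 18.9). The chromosome as a whole had H3K4me3 at 29.9% and H3K27ac at 13.4% of 1048 protein-coding genes. Among the 38 other protein-coding genes within 500 kb of the histone blocks on this chromosome, 3 had H3K4me3 (7.89%, 1.66 to 21.4) and 3 had H3K27ac. The low share of the histone genes there was thus also seen in the genes around them. On chromosome 1, 3 of 12 histone genes had H3K4me3 (25%, 5.49 to 57.2) and 4 had H3K27ac (33.3%, 9.92 to 65.1). All 2092 protein-coding genes of chromosome 1 had H3K4me3 at 42.4% and H3K27ac at 29.7%, and both values lay within these intervals. The 33 neighbours of the histone genes had H3K4me3 at 17 starts (51.5%, 33.5 to 69.2) and H3K27ac at 11 (33.3%, 18 to 51.8). The intervals of histone genes and neighbours overlapped on both chromosomes.

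The genes fell into 7 blocks when neighbouring starts over 200 kb apart were separated. The largest, named here by its first gene H1-1, spans 269.9 kb on chromosome 6 and holds 28 genes, of which 5 had H3K4me3 and 4 had H3K27ac. The H2BC13 block spans 87.5 kb and holds 16 genes, with 2 marked by H3K4me3 and 0 by H3K27ac. In the H2BC11 block of 5 genes and the H2AC1 block of 2 genes, also on chromosome 6, no start had either mark. The H2BC18 block on chromosome 1 spans 77.6 kb and holds 10 genes, with 3 marked by H3K4me3 and 4 by H3K27ac, and the H2AC25 block of 2 genes had none. H4C16 on chromosome 12 stood alone. In the H1-1 block all 4 H3K4me3 and all 3 H3K27ac peaks lay within 1 kb of a gene of the set.

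**Figure D2:**
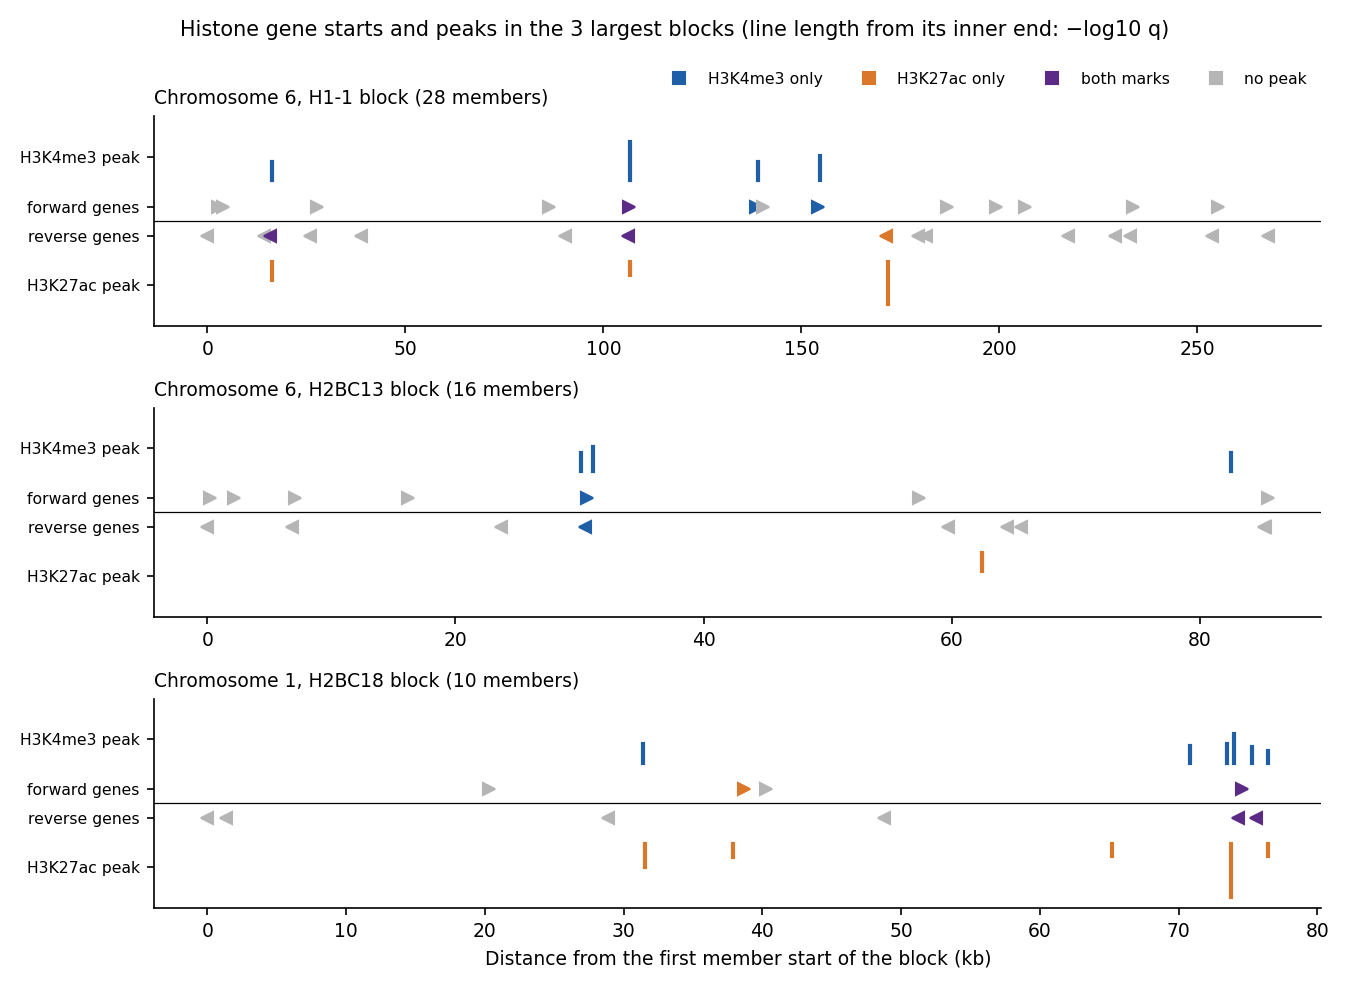
Arrowheads mark the starts and strands of the histone genes along the 3 largest blocks, in kb from the first start, coloured by the marks within 1 kb. Lines above (H3K4me3) and below (H3K27ac) are peaks, with a length in proportion to −log10 q, and most arrowheads have no line beside them.

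The divergent pair H2BC4 and H2AC6 carried the H3K4me3 peak with the highest score of the set. The peak at chr6:26124681-26124900 was 220 bp wide and had a −log10 q of 4.60, above 78.4% of the H3K4me3 list. The list gives each peak an unlabelled value, which was read from its range as a −log10 q. On that reading, a higher value means a smaller false discovery rate. An H3K27ac peak of 271 bp at chr6:26124593-26124863 had a −log10 q of 1.55, above 8.32% of its list, and the peaks of the marks shared 183 bp. Both peaks lay on the H2AC6 side, where the H3K4me3 peak covered 43.6% and the H3K27ac peak 66.2% of the coding sequence. The interval printed above for this pair lay outside both peaks, whose nearest edges were 308 and 220 bp from the H2AC6 start.

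H2BC21 and H2AC20 on chromosome 1 had the widest H3K4me3 peak and the strongest H3K27ac peak. H3K4me3 formed 3 peaks around this pair. The widest, chr1:149857712-149858140, was 429 bp wide with a −log10 q of 3.48, and covered 86.8% of the H2BC21 coding sequence. The others were 229 bp wide at chr1:149857283-149857511, with a −log10 q of 2.21, and 316 bp wide at chr1:149859042-149859357, with a −log10 q of 1.88. The H3K27ac peak at chr1:149857444-149857919 was 476 bp wide with a −log10 q of 6.42, above 96.9% of its list, and covered 28.3% of the H2BC21 coding sequence. The neighbouring gene H2AC21 shared the peak at chr1:149859042-149859357, which covered 72.1% of its coding sequence. It had a further H3K4me3 peak at chr1:149860209-149860562 (354 bp, −log10 q 1.41) and an H3K27ac peak at chr1:149860278-149860467 (190 bp, 1.47), and both overlapped the annotated gene BOLA1.

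At H2AC15 and H2BC15, the third marked pair, each coding sequence held its own H3K4me3 peak and the nearest H3K27ac peak was 31.8 kb from H2AC15 and 31.6 kb from H2BC15. The peak in H2AC15, chr6:27805677-27805938, was 262 bp wide with a −log10 q of 2.23, and covered 54.1% of the coding sequence. The peak in H2BC15, chr6:27806661-27806918, was 258 bp wide with a −log10 q of 2.93, and covered 41.5%. By pairs, 3 of 10 had H3K4me3 (30%, 6.67 to 65.2) and 2 of 10 had H3K27ac (2.52 to 55.6). Counted by gene, 6 of 20 had H3K4me3 (30%, 11.9 to 54.3), against 38.2% of all protein-coding genes. H3K27ac was at 4 of these 20 (20%, 5.73 to 43.7), against 23.6%. Among the 12 H2A and H2B genes outside such pairs, 3 had H3K4me3 (25%, 5.49 to 57.2), so the shares differed by less than their intervals.

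The remaining marked starts had H3K4me3 peaks with a −log10 q of 2.97 or lower. H2AC4 had an H3K4me3 peak upstream at chr6:26034343-26034554 (212 bp, −log10 q 2.23) and an H3K27ac peak at chr6:26034310-26034538 (229 bp, 2.16). H1-4 was the marked linker histone gene, with 1 H3K4me3 peak of 200 bp at chr6:26157077-26157276 and a −log10 q of 2.23, over 30.3% of its coding sequence. No peak of either mark lay within 1 kb of H1-1, H1-2, H1-3, H1-5 or H1-6. The nearest H3K4me3 peak was 16.3 kb from H1-1 and from H1-6, the testis linker histone gene, 22.1 kb from H1-2, 62.3 kb from H1-3 and 22.7 kb from H1-5. H2BC6 had a 347-bp H3K4me3 peak (chr6:26172537-26172883, −log10 q 2.97) 250 bp downstream of the outer start of its annotated gene. That start is 11.7 kb from its canonical start, and H2BC6 was unmarked when canonical starts were used.

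H4C4 and H2AC19 had H3K27ac without H3K4me3, as did H4C16. The H3K27ac peak upstream of H4C4, chr6:26189716-26189992, was 277 bp wide and had a −log10 q of 5.12, above 91.6% of its list, while the nearest H3K4me3 peak was 16.5 kb away. The peak near H2AC19 (chr1:149821702-149821922, 221 bp, −log10 q 1.55) overlapped the pseudogene HIST2H2BC. H4C16 on chromosome 12 had a 299-bp peak at chr12:14923539-14923837 with a −log10 q of 1.55, over 41.4% of its coding sequence. H2BC26 and H2AC25, also outside chromosome 6, were 29760 and 29990 bp from the nearest H3K4me3 peak. In the H2BC18 block the starts of H2BC18, H3C13, H4C14, H3C14, H3C15 and H4C15 had no peak of either mark.

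**Figure D3:**
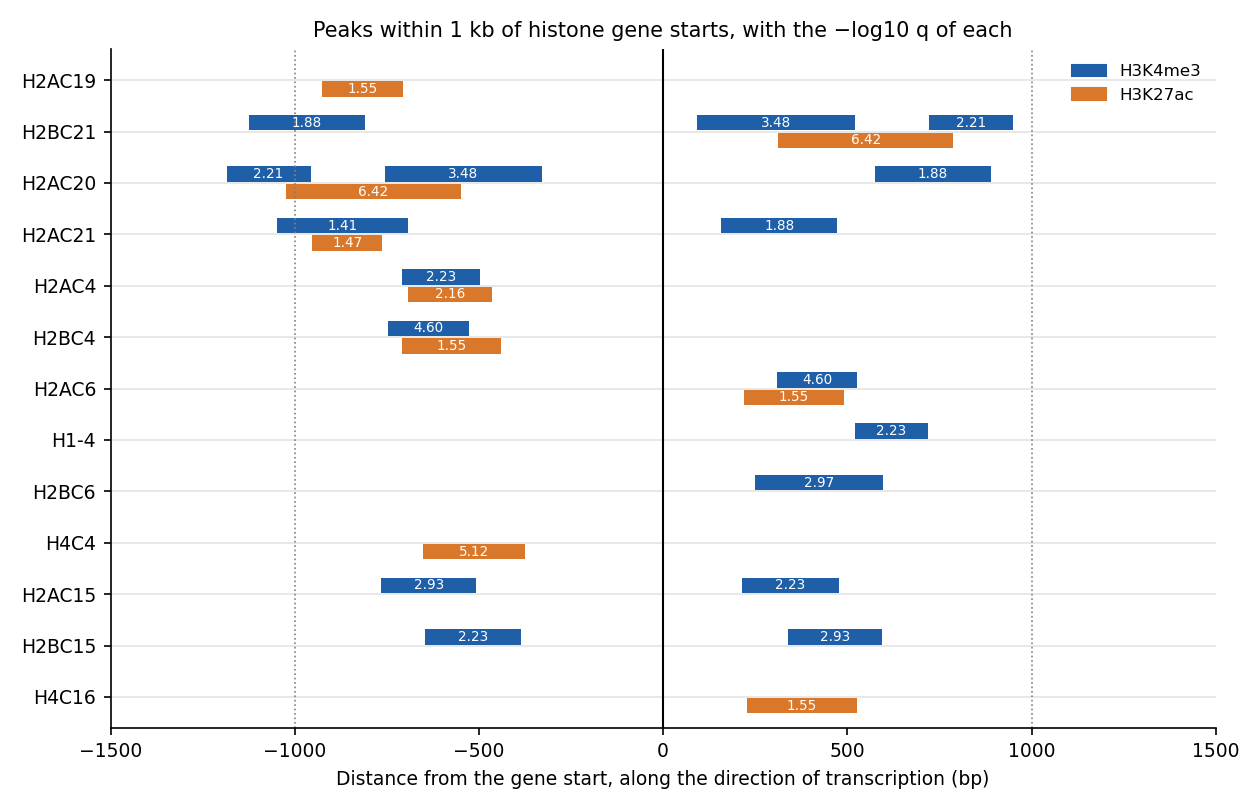
Each row is a histone gene with at least 1 peak, with bars for H3K4me3 (blue) and H3K27ac (orange) peaks at their distance in bp from the gene start, upstream to the left, and the −log10 q written in each bar. Dotted lines mark 1 kb on either side, and no bar crosses the start.

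No peak covered a histone gene start. The nearest H3K4me3 edge lay at 92 to 527 bp (median 318) from the 10 marked starts, and the nearest H3K27ac edge at 220 to 763 bp (median 439) from the 9 marked starts. Start coverage was uncommon elsewhere too. It was seen at 8.65% of 7695 other marked genes for H3K4me3 and at 6.24% of 4744 for H3K27ac, and the intervals of the histone genes, 0 of 10 (up to 30.8%) and 0 of 9 (up to 33.6%), include these values. Of the 17 combinations of a gene and an H3K4me3 peak, 9 had the peak centre downstream of the start and 6 had a peak over the coding sequence. At the 6 genes with both marks, the peaks shared between 183 and 208 bp.

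The peaks of the set had a lower median width and a lower median score than those at other gene starts. The 10 H3K4me3 peaks had a median width of 260 bp (200 to 429) and a median −log10 q of 2.23 (1.41 to 4.60). The 8509 H3K4me3 peaks at other protein-coding starts had medians of 359 bp and 3.54, with quartiles of 2.45 and 4.75 for −log10 q. The 7 H3K27ac peaks had medians of 271 bp and 1.55, against 309 bp and 2.82 in 4933 peaks. With peaks at or above the list median alone, 5 of 64 genes (7.81%) had H3K4me3, against 26.8% of protein-coding genes, and 3 (4.69%) had H3K27ac, against 14.9%. With a −log10 q of at least 5, H3K4me3 was at 0% against 10.7%. The order of the shares turned for H3K27ac, which the same number of histone genes (4.69%, 0.977 to 13.1) had against 3.53% of protein-coding genes. That interval included the 3.53%, and H2BC21 and H2AC20 among these genes shared their peak.

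Of the 54 genes without H3K4me3 in the window, 6 (11.1%) had a peak within 3 kb and 44 (81.5%) had none within 10 kb, close to the 8.15% and 83.2% of other unmarked genes. The closest was H2BC5 at 1074 bp. For H3K27ac, 7 of 55 (12.7%) were within 3 kb, against 8.29% of other unmarked genes, with H2BC11 at 1164 bp and H2AC11 at 1412 bp. Just inside the window, the farthest nearest edges were those of H2BC4 at 527 bp for H3K4me3 and of H2AC21 at 763 bp for H3K27ac. H3C12 had no H3K4me3 within 1 kb of its outer start, but a 378-bp peak (chr6:27858028-27858405, −log10 q 2.21) overlapped its coding sequence, and it was marked when canonical starts were used. The unmarked histone genes had a median distance of 23 kb to the nearest H3K4me3 peak, shorter than the 67.2 kb of the other 12404 unmarked genes.

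Some histone genes lie in nearly identical copies of DNA, in which a short read can match several places. In the 2 kb around each start, the share of 32-base words that occur elsewhere in the assembly had a median of 8.58% (0 to 100), against 2.5% for all protein-coding genes. It was over 50% at 7 genes, all in the H2BC18 block (H2BC18, H3C13, H4C14, H3C14, H2AC19, H3C15 and H4C15), with values of 76.6% to 100%. Of these, 0 had H3K4me3 and 1 had H3K27ac, while the 3 other genes of the block (H2BC21, H2AC20 and H2AC21), at 11.4% to 24.6%, all had both marks. HIST2H2AA3, not matched by the symbol rule, lies between H3C14 and H2AC19 among these windows and had both marks. Its own share of recurring words is not given here, and the median of HIST2H2AA3 and HIST1H4B was 40%. Across all protein-coding genes the share with H3K4me3 was 3.84% where 50% of words or more recurred and 42.9% where under 5% did. On chromosome 6 no histone gene exceeded 31.7%. Of the 22 histone genes under 5%, 2 had H3K4me3 (9.09%), and of the 24 between 5% and 20%, 5 had it (20.8%), against 39.1% of protein-coding genes in that range. Between 20% and 50% the order was the other way, with H3K4me3 at 3 of 11 histone genes (27.3%) and 22.5% of protein-coding genes and H3K27ac at 18.2% and 15.6%. Without the 7 repeated windows, 10 of 57 histone genes had H3K4me3 (17.5%), against 39.9% of protein-coding genes.

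**Figure D4:**
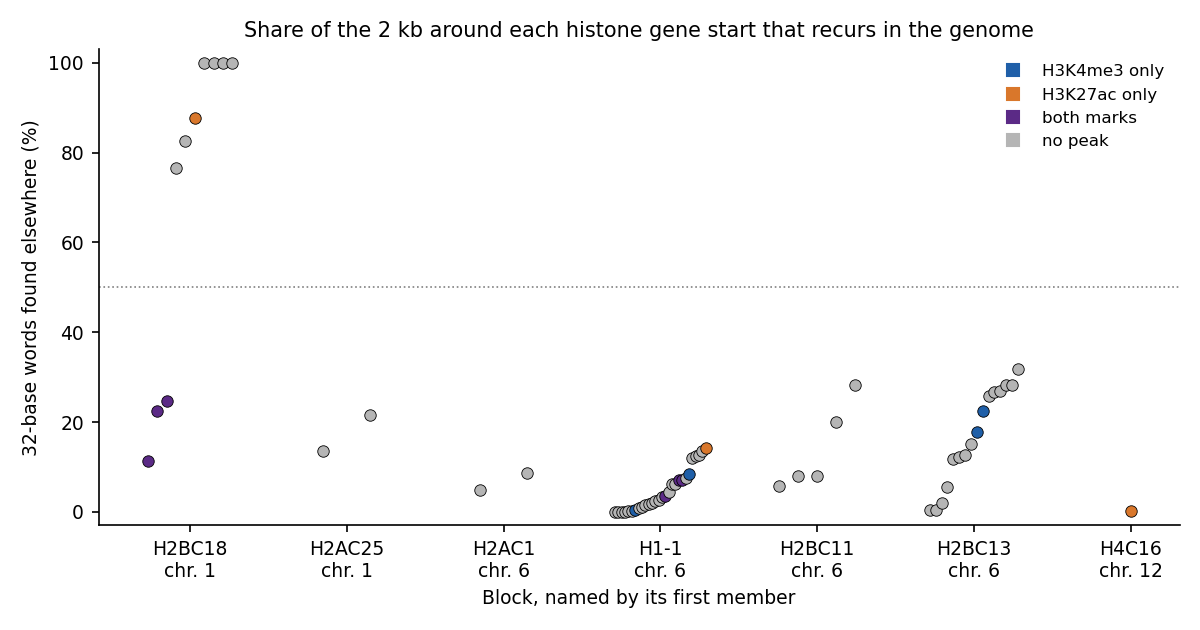
Each point is a histone gene, placed by block, and the vertical axis gives the percentage of 32-base words in the 2 kb around its start that occur elsewhere in the assembly. Points over the dotted line at 50% are all in the H2BC18 block and none of them has H3K4me3, while unmarked genes on chromosome 6 lie between 0 and 31.7%. HIST2H2AA3, which lies in this block and had both marks, is not plotted.

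The unmatched gene HIST2H2AA3 had an H3K4me3 peak of 619 bp with a −log10 q of 2.23 and an H3K27ac peak of 264 bp with a −log10 q of 2.82, which also lay within 1 kb of the pseudogene H2BC19P. HIST1H4B had neither mark. Of 13 histone pseudogenes in the blocks, 1 had H3K4me3 (H2BC19P) and 2 had H3K27ac (H2BC19P and HIST2H2BC).

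Variant histone genes were not matched by the symbol rule, and include genes expressed through the cell cycle and genes of the testis. Among them, H3-4 (chr1:228612546-228613061) lies near the H2AC25 block and H2AJ (chr12:14927339-14930936) near H4C16. The variant genes had H3K4me3 at 8 of 26 starts (30.8%, 14.3 to 51.8) and H3K27ac at 5 (19.2%, 6.55 to 39.4). Both intervals included the shares of all protein-coding genes, 38.2% and 23.6%. The highest score was at H2AX, whose histone marks sites of DNA damage, with an H3K4me3 peak of 1102 bp and a −log10 q of 14.71 and an H3K27ac −log10 q of 6.81. H2AX also carries the stem-loop described above. MACROH2A1 followed with 1326 bp and 11.67, and CENPA, the centromeric H3, with 525 bp and 6.36. H1-10 and H2AZ2 had a −log10 q of 5.84 and 3.40. H3-3A and H3-3B, which encode H3.3, had no peak of either mark within 1 kb of their outer starts. Canonical starts were not examined for the named variant genes, so a peak at another promoter of these genes could be missed.

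Genes whose products act in transcription and processing of histone mRNA had a larger share of marked starts than the histone genes. Of 13 histone locus body and 3′ end factors, 9 had H3K4me3 (69.2%, 38.6 to 90.9) and 6 had H3K27ac (46.2%, 19.2 to 74.9). All protein-coding genes had H3K4me3 at 38.2%, just below that interval, and H3K27ac at 23.6%, within it. The highest H3K4me3 scores were at HINFP, an activator of H4 genes (4.91), CPSF2 (4.60), the mRNA endonuclease CPSF3 (4.46), SLBP (4.26) and NPAT (3.34). Of 15 histone chaperones and assembly factors, 12 had H3K4me3 (80%, 51.9 to 95.7) and 9 had H3K27ac (60%, 32.3 to 83.7). Both intervals lay above the shares of all protein-coding genes. The genes with H3K4me3 included CHAF1B (7.36) and CHAF1A (5.47) of the CAF-1 complex, UBN1 (6.30), NAP1L1 (5.43) and SUPT16H of the FACT complex (4.73). The intervals of both lists for H3K4me3 lay above that of the replication-dependent genes, and these shares come from the same library.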

How the data were processed

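H2087 cells were profiled by ChIP-seq with 1 library for H3K4me3, 1 for H3K27ac and 1 for input chromatin, of which the last was not used here. According to the labels and the submitters' processing notes, libraries were made with a TruSeq ChIP kit and sequenced on a HiSeq4000. The notes name bcl2fastq 1.8.4, Bowtie 1.1.1, SAMtools 1.2, Picard 1.118, MACS2 2.1.0 and ChIPseeker 1.6.6 on hg19. The calling threshold, the treatment of reads with several matches and that of duplicates are not given in the sources used here. The deposited lists give a position, a name and an unlabelled value, which was read from its range as a −log10 q written per summit by the authors' peak calling. It can be compared within a list only, since it grows with depth.

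Intervals listed once per summit were joined, with the highest −log10 q kept, which gave 18585 H3K4me3 peaks from 20282 entries and 24096 H3K27ac peaks from 25275. Gene starts, canonical transcripts and coding sequences came from GENCODE 44 mapped to GRCh37. Positions are 1-based. A start was marked when a peak edge lay within 1 kb. Shares have 95% intervals by the exact Clopper-Pearson method, for counting error alone. Sequences, motifs and 32-base words on both strands were read from the GRCh37 primary assembly, with words of other genes sampled every 50 bases. Scripts ran in Python 3.11.15 with numpy 2.4.6, scipy 1.17.1, numba 0.67.0 and matplotlib 3.10.9 and were tested on simulated data. Full values are given for the 5 genes with the highest score in each list, the 5 with the widest H3K4me3 peak, the genes outside chromosome 6 and the H1 genes, and other lists are counted whole with up to 5 genes named by score. H2BC5, H2BC11, H2AC11, H3C12 and the genes of the repeated windows were named after their values were seen. The members and lists were chosen with earlier results of these data known.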

Additional observations from a re-analysis of the deposited data

How the results depend on the processing

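Of 40 alternatives for 5 results, 34 stayed within the counting interval of the reported share and 6 moved outside it. These were all stricter limits on the peaks. With a −log10 q of at least 5, H3K4me3 was found at 0% of the histone genes and 0% of those on chromosome 6, both marks at 0% and H3K27ac at 4.69%. All protein-coding genes then had H3K4me3 at 10.7%, both marks at 1.56% and H3K27ac at 3.53%. The H3K27ac share of the histone genes was thus the higher, but its interval (0.977 to 13.1) included the share of all protein-coding genes. With peaks at or above the list median, H3K27ac fell to 4.69% and both marks to 3.12%, against 14.9% and 10.0%. A stricter limit can only lower a share, and those of all protein-coding genes fell too, from 23.6% and 18.6%. Why the shares of the histone genes fell as they did was not tested. Distances of 500 bp and 3 kb gave H3K4me3 shares of 12.5% and 25%, against 30.8% and 43.3%, and H3K27ac shares of 9.38% and 25%, against 17.8% and 29.9%. With canonical starts the H3K4me3 count stayed at 10 of 64 (15.6%), against 41.3% of all protein-coding genes, but H2BC6 was lost and H3C12 gained. Starts of any transcript gave 17.2%, against 45.4%. The addition of HIST2H2AA3 and HIST1H4B gave 16.7%. These last settings were both chosen after seeing the data. No paired analysis was possible because there were no replicates, and for the same reason nothing could be left out in turn. Without read counts, the depth needed to detect a mark at these starts is unknown, and the share of reads lost at repeated sequences was not tested.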
